A study of Mus musculus with 7 samples.

Results

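The 32 genes described here serve glucose breakdown and the response to low oxygen, and they were followed across 3 genotypes of mouse embryonic fibroblasts (MEFs). They were taken by gene symbol from a deposited table of 29955 gene rows. They comprise 21 glycolytic genes, 9 targets of hypoxia-inducible factor (HIF) outside glycolysis, and Hif1a and Epas1, which encode the HIF alpha subunits. The glycolytic genes are glucose and lactate transporters, enzymes of the pathway except pyruvate kinase, and regulators of phosphofructokinase and of pyruvate entry into mitochondria. All 32 passed a minimum mean of 10 normalized reads over the 7 libraries, as did 16900 rows of the table.

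Glycolysis splits glucose into pyruvate, and many fibroblasts in culture export much of that pyruvate as lactate. When oxygen is short, prolyl hydroxylases no longer mark the HIF alpha subunits for destruction; HIF then pairs with Arnt, binds short DNA elements with the core RCGTG, and raises transcription of most glycolytic genes together with genes for mitophagy, blood vessel growth, acid balance and HIF's own hydroxylases. Mdm2 is a ubiquitin ligase best known for destroying p53; C462A replaces a cysteine of its RING domain with alanine, a change known to remove the ligase activity.

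RNA-seq libraries were made from 2 samples of p53KO Mdm2(C462A) KI MEFs, which lack p53 and carry the C462A allele of Mdm2, 2 samples of p53Mdm2 KO MEFs, which lack p53 and Mdm2, and 3 samples of p53 KO MEFs. All 7 samples thus lack p53, come from strain C57BL/6 and were grown in DMEM with 10% fetal calf serum and antibiotics; the labels name no oxygen level and no embryonic stage. Whether replicates are different embryos or different dishes is not stated, so p-values measure only the spread between these samples and part of it may be technical. The labels do not describe how the p53 or Mdm2 alleles were built: Trp53 was read at 687 to 1775 normalized reads and Mdm2 at 1575 to 2887 in the 7 libraries, with p53Mdm2 KO replicate 1 lowest and p53KO Mdm2(C462A) KI replicate 2 highest for Mdm2, so transcript levels do not check the genotypes.

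The libraries held 28.5 to 41.5 M reads (M, units of 1e6). Normalized reads are reads scaled by the authors between libraries; a gene with no read could still have up to 3 reads, or 2.65 to 3.86 normalized reads depending on the library, a floor that covers counting error only. All 14 fibroblast markers were read in every library, but p53 KO replicate 1 had 3456 normalized reads of Col1a2, against 175050 to 547553 in the other 6 libraries. Of Thy1, a fibroblast surface marker, it had 99.1 normalized reads, against 6592 to 37386 in the others, and of Kdr, an endothelial receptor gene, 22.7 against 312 to 994. Of Sox2, a stem cell and neural gene, it had 493 normalized reads, against 7.42 to 13.0 in the others, and of Cdh1, an epithelial gene, 345 against 7.43 to 159. Other markers of the same lists went the other way in that library. Of the fibroblast markers, Col3a1 (166679 normalized reads), Vim (155416) and S100a4 (37554) were the highest of the 7 libraries. Of the neural markers, Nes (1312) and Tubb3 (18.2) were the lowest, and of the epithelial markers Epcam and Cldn4 were at 0. The part of these marker levels in the results was not tested. That library stood apart on the first principal component (44.3% of the variance over genes) and p53KO Mdm2(C462A) KI replicate 2 on the second (24.9%). Y-linked genes were read in p53KO Mdm2(C462A) KI replicate 2, p53Mdm2 KO replicate 1 and p53 KO replicate 2 (summed 4135 to 5642 normalized reads) and barely in the other 4 libraries (8.18 to 54.1), so each genotype held both kinds. Because the samples are bulk cultures, fewer cells of a type and less RNA per cell cannot be told apart.

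Promoters are shown first for the members whose level in every library with altered Mdm2, p53KO Mdm2(C462A) KI and p53Mdm2 KO alike, lay above every p53 KO library. How many of all tested genes meet this joint criterion was not counted. Each window runs from 250 bases before the transcript start to 50 bases after it (RefSeq, build GRCm38.p6), and capitals mark HIF cores, ACGTG or GCGTG on either strand. The E-box CACGTG and the stretch CACGCGTG, as in Ankrd37, each hold a core on both strands, so 1 such site counts as 2 cores.
Slc2a1, chr4:119108495-119108794, plus strand: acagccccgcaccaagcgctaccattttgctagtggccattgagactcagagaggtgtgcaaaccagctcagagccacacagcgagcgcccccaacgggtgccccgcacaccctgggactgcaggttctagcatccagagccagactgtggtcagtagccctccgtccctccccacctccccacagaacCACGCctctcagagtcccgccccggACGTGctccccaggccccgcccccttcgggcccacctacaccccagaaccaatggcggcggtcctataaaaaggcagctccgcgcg
Pfkl, chr10:78009758-78010057, minus strand: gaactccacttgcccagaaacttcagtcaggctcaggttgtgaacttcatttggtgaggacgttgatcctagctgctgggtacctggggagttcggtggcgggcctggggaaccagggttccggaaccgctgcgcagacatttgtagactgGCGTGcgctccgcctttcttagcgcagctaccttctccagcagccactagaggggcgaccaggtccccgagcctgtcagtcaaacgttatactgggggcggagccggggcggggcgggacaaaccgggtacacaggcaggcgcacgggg
Pdk1, chr2:71872974-71873273, plus strand: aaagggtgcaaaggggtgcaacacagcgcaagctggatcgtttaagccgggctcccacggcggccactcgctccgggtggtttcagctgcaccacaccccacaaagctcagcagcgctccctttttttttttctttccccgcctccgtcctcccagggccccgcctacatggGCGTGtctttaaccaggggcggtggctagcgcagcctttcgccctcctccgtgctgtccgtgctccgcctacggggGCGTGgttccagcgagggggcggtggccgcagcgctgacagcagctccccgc
Bnip3, chr7:138909457-138909756, minus strand: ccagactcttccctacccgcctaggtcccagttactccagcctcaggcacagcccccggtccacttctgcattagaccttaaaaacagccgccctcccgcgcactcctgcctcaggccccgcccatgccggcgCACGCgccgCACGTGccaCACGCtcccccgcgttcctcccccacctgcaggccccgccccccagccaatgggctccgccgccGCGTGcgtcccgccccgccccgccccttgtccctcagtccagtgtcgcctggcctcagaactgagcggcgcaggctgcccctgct
Ankrd37, chr8:45999801-46000100, minus strand: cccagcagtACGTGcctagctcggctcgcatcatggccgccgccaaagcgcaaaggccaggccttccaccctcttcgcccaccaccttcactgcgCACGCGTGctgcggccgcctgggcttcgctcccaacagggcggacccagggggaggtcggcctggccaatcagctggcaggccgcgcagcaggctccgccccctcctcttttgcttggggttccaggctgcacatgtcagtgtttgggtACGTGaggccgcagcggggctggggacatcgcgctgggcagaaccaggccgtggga
The Bnip3 window held 5 cores and the Ankrd37 window 4, against 2 each for Slc2a1 and Pdk1 and 1 for Pfkl. Pdk1 has a second annotated start, whose window held none.

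A pair of windows from the last steps of glycolysis shows the other extremes of core number. Ldha, the lactate dehydrogenase subunit gene, held 7 cores in the window of its first listed start and 2 in that of its second. Eno2, an enolase gene known from neurons, held 0.
Ldha, chr7:46845554-46845853, plus strand: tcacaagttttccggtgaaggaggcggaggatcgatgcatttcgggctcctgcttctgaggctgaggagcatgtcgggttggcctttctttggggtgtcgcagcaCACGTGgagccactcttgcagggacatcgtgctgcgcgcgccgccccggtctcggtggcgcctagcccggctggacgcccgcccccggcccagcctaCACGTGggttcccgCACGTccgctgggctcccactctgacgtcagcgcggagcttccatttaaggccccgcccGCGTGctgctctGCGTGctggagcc
Eno2, chr6:124769624-124769923, minus strand: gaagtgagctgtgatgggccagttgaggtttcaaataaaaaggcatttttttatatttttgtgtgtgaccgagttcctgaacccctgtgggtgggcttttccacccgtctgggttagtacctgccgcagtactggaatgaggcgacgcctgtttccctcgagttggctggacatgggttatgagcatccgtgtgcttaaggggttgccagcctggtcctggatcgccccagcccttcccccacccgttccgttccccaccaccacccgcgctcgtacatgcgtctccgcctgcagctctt
Of the 32 genes, 28 matched the promoter table, with 41 windows, and 33 of these (80.5%) held a core, against 59.7% of the 12834 windows of the 10034 matched genes among those tested. ACGTG was present in 22 of 41 windows (53.7%) against 24.3% of windows of all tested genes. GCGTG was present in 56.1% of the members' windows and 48.6% of windows of all tested genes. CACGTG was present in 12.2% of members' windows and 9.62% of windows of all tested genes. Median GC content was 61% in members' windows and 60.3% in windows of all tested genes. The members were listed as HIF targets or as genes of a pathway that HIF raises, so a higher share can follow from the choice. Windows of 1 gene can overlap and share cores, as for Aldoa and Eno1. A match is a run of letters and shows no binding.

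No member, and no gene among the 16900 tested, passed limma's adjusted p of 0.05 in any of the 3 comparisons (percent called 0 in each). The members' adjusted p from limma was 1.00 for every gene in p53Mdm2 KO against p53 KO MEFs, 0.437 to 0.992 in p53KO Mdm2(C462A) KI against p53 KO MEFs, and 1.00 again for every gene when the knock-in was set against p53Mdm2 KO MEFs. At an unadjusted p under 0.05, limma gave 507 (3%), 1761 (10.4%) and 503 (2.98%) genes in these comparisons and voom on the recovered reads, which also passed 0 genes after adjustment, gave 470, 1724 and 458. Differences below are therefore values with their standard errors, and none is a call.

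**Figure D1:**
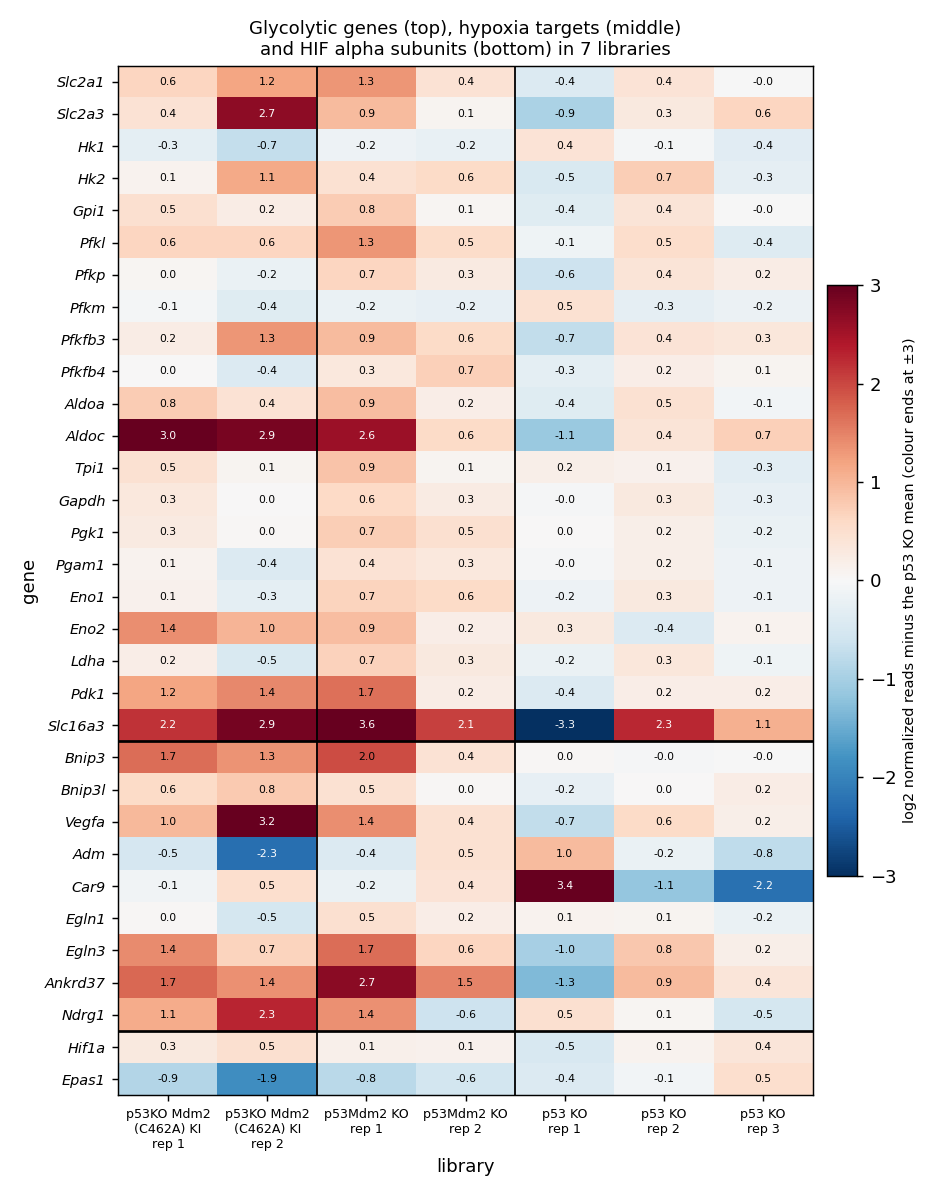
Each cell gives the log2 of normalized reads of a gene (rows) in a library (columns) minus the mean of the 3 p53 KO libraries, with glycolytic genes at the top, other HIF targets in the middle and the HIF alpha subunits at the bottom. The column of p53Mdm2 KO replicate 1 holds the highest value of 17 genes (53.1%, against 5.62% of all tested genes), and the column of p53 KO replicate 1 the lowest value of 15 (46.9%, against 26.4% of all tested genes).

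In p53Mdm2 KO against p53 KO MEFs, 19 of 21 glycolytic genes had a higher mean, with a median log2 difference of 0.50 (range -0.21 to 2.58), and 8 of 9 hypoxia targets did, with a median of 0.38 (range -0.15 to 1.47). Over all tested genes 48.2% were higher and the median was -0.01. In 8 glycolytic genes and 3 hypoxia targets both p53Mdm2 KO libraries lay above all 3 p53 KO libraries, a separation found upward in 8.99% of all tested genes and downward in 9.2%; of the 32 genes only Epas1 was separated downward. An unadjusted limma p under 0.05 was reached by 3 glycolytic genes and 2 hypoxia targets, all higher, beside 1.51% of all genes higher and 1.49% lower at that p. Without p53 KO replicate 1, 21 of 21 and 9 of 9 were higher (medians 0.39 and 0.61), and without p53Mdm2 KO replicate 2 the medians were 0.75 and 1.36. Without p53Mdm2 KO replicate 1 they were 0.30 and 0.42, and no member had an unadjusted p under 0.05.

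In p53KO Mdm2(C462A) KI against p53 KO MEFs the hypoxia targets differed more than the glycolytic genes in median. In mean log2 difference the lists were closer, at 0.69 and 0.56, and 66.7% of genes were higher in each. Of 9 hypoxia targets 6 were higher, with a median log2 difference of 0.96 (range -1.37 to 2.08), and of 21 glycolytic genes 14 were higher, with a median of 0.34 (range -0.50 to 2.46); over all tested genes 51.2% were higher and the median was 0.01. In 5 hypoxia targets and 5 glycolytic genes both p53KO Mdm2(C462A) KI libraries lay above all p53 KO libraries, against 14.1% of all tested genes upward and 14.4% downward; only Epas1 was separated downward. Unadjusted limma p under 0.05 was reached by 4 genes of each list, all higher (4.98% of all genes), and by Epas1, lower (5.44% of all genes). Without p53KO Mdm2(C462A) KI replicate 2, 19 of 21 glycolytic genes and 7 of 9 hypoxia targets were higher and 3 members had an unadjusted limma p under 0.05 (638 of all genes). Without p53 KO replicate 2 the medians were 0.54 for glycolytic genes and 1.30 for hypoxia targets, and without p53KO Mdm2(C462A) KI replicate 1 the glycolytic median was 0.21.

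In p53KO Mdm2(C462A) KI against p53Mdm2 KO MEFs, 9 glycolytic genes were higher and 12 lower, with a median log2 difference of -0.19, and 5 hypoxia targets were higher and 4 lower, with a median of 0.07. Of the glycolytic genes, 7 were separated downward and 2 upward, and of the hypoxia targets 2 downward and 1 upward, against 17.1% and 15.8% of all tested genes. Eno1 was the only member with an unadjusted limma p under 0.05; it was lower, as were 1.78% of all genes at that p, with 1.2% higher. Both medians depended on single libraries. Without p53Mdm2 KO replicate 1 they were 0.10 for glycolytic genes and 0.38 for hypoxia targets, and without p53Mdm2 KO replicate 2 they were -0.42 and -0.44. Without p53KO Mdm2(C462A) KI replicate 1 the median of the hypoxia targets was 0.15.

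The lists were also compared within each library, as the mean of the deposited log2 values relative to the p53 KO mean. The glycolytic mean was 0.55 and 0.58 in p53KO Mdm2(C462A) KI MEFs, 0.91 and 0.36 in p53Mdm2 KO MEFs and -0.35, 0.33 and 0.02 in p53 KO MEFs. The mean of the hypoxia targets was 0.66 and 0.71 in p53KO Mdm2(C462A) KI MEFs, 0.93 and 0.29 in p53Mdm2 KO MEFs and 0.20, 0.08 and -0.28 in p53 KO MEFs. Within the 4 libraries with altered Mdm2 the lists stood close together: the glycolytic mean minus the hypoxia mean was -0.12 and -0.13 in p53KO Mdm2(C462A) KI MEFs and -0.01 and 0.07 in p53Mdm2 KO MEFs. In p53 KO MEFs it was -0.55, 0.25 and 0.30, so the low end of their spread was replicate 1, the library with little Col1a2, and the other p53 KO libraries lay above all 4 libraries with altered Mdm2. Relative to p53 KO MEFs this quantity differed by -0.13 in p53KO Mdm2(C462A) KI MEFs and by 0.03 in p53Mdm2 KO MEFs, and without p53 KO replicate 1 by -0.40 and -0.25 in these comparisons, with no test.

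Other gene lists also differed between libraries. The mean of 20 mitosis genes was -0.77 and -1.79 in p53KO Mdm2(C462A) KI MEFs, -0.50 and -0.12 in p53Mdm2 KO MEFs and 0.13, -0.08 and -0.05 in p53 KO MEFs. The mean of 20 targets of Atf4, a transcription factor of the amino acid and unfolded protein responses, was 0.53 and 1.80 in p53KO Mdm2(C462A) KI MEFs, 0.72 and -0.10 in p53Mdm2 KO MEFs and -0.56, 0.49 and 0.07 in p53 KO MEFs. p53KO Mdm2(C462A) KI replicate 2 was thus lowest for the first list and highest for the second. All 6 mesothelial markers were read in every library, with summed levels of 3513 and 43922 normalized reads in p53KO Mdm2(C462A) KI MEFs, 18369 and 3435 in p53Mdm2 KO MEFs and 12870.1, 2486 and 3451 in p53 KO MEFs. The 8 immune markers summed to 1259 and 183 normalized reads in p53KO Mdm2(C462A) KI MEFs, 1342 and 227 in p53Mdm2 KO MEFs and 268, 354 and 2904 in p53 KO MEFs. Summed levels of these 2 marker lists overlapped between all genotypes, and Ptprc, the pan-leukocyte gene, was at 0 in p53 KO replicate 1. The part of these lists in the differences between genotypes was not tested.

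Within the libraries that read Y-linked genes (1 per genotype) and within the others (1 of each altered genotype and 2 of p53 KO MEFs), differences set single libraries against 1 or 2 and are given as values without a test. Where Y-linked genes were read, the median log2 difference of p53Mdm2 KO against p53 KO MEFs was 0.47 for glycolytic genes and 0.80 for hypoxia targets, and within the others it was 0.46 and 0.36. For p53KO Mdm2(C462A) KI against p53 KO MEFs it was -0.05 and 0.76 within the libraries that read them and 0.48 and 1.13 within the others. For p53KO Mdm2(C462A) KI against p53Mdm2 KO MEFs it was -0.56 and -0.60 in the libraries that read them and 0.10 and 0.52 in the others.

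**Figure D2:**
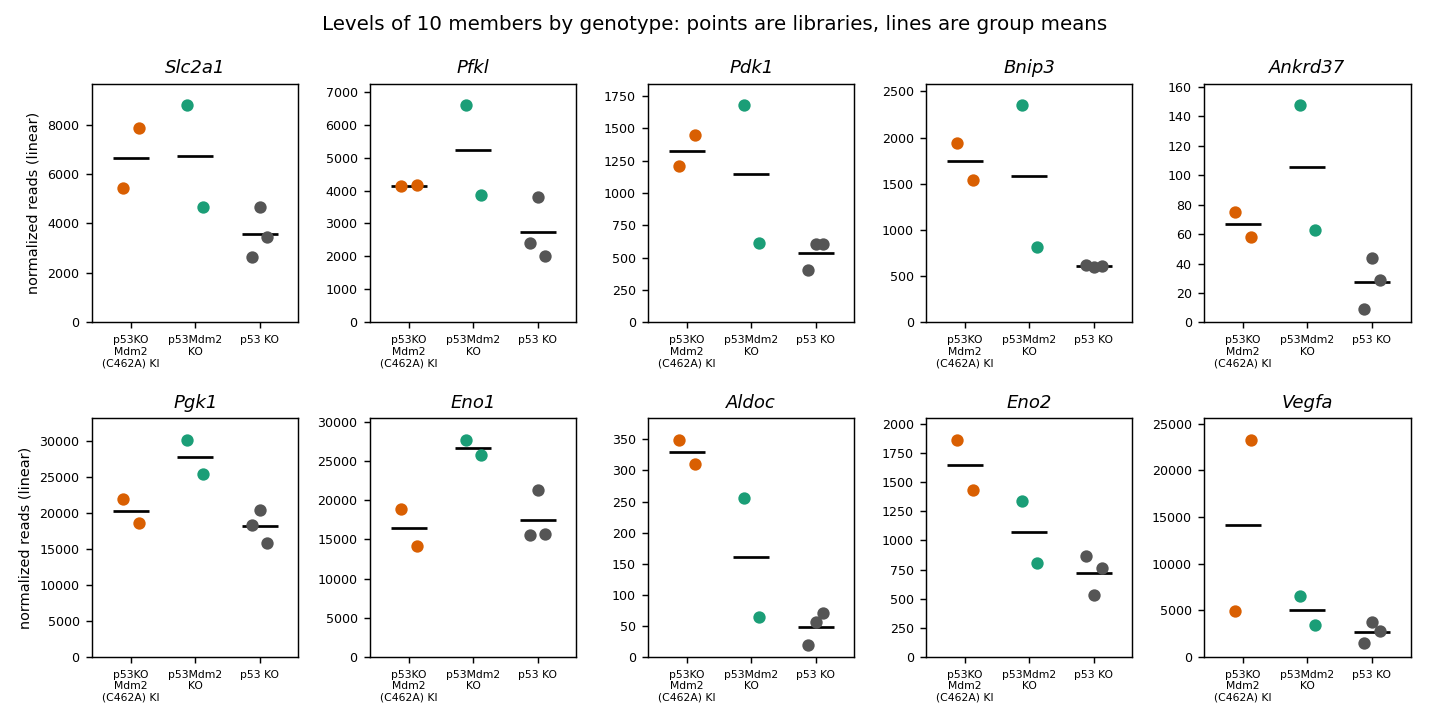
Points show normalized reads (linear axis from 0) of 10 members in each of the 7 libraries, by genotype, with a line at the group mean. In the 5 upper panels, chosen for this placement, every point with altered Mdm2 lies above the 3 p53 KO points. For Slc2a1, Pfkl and Pdk1 the lowest of these points lies only just above the highest p53 KO point. The share of all tested genes placed this way was not counted. Below, the p53Mdm2 KO points are highest for Pgk1 and Eno1, and the p53KO Mdm2(C462A) KI points for Aldoc and Eno2.

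Of the glucose transporter genes, the groups separated for Slc2a1 (GLUT1), which serves most cultured cells, and not for Slc2a3. Slc2a1 had 5449.8 and 7878 normalized reads in p53KO Mdm2(C462A) KI MEFs, 8775 and 4684 in p53Mdm2 KO MEFs and 2633, 4656 and 3472 in p53 KO MEFs. All 4 libraries with altered Mdm2 lay above the p53 KO range, p53Mdm2 KO replicate 2 by little. The log2 difference from p53 KO MEFs was 0.90 (SE 0.36) in p53KO Mdm2(C462A) KI MEFs, with a limma adjusted p of 0.471, and 0.87 (SE 0.36) in p53Mdm2 KO MEFs; the 2 comparisons share the p53 KO libraries. With p53Mdm2 KO replicate 1 left out its p53Mdm2 KO difference was 0.42, and with replicate 2 left out it was 1.32. Slc2a3 (GLUT3), a high-affinity transporter, had 632 and 3008 normalized reads in p53KO Mdm2(C462A) KI MEFs, 897 and 497 in p53Mdm2 KO MEFs and 244, 575 and 729 in p53 KO MEFs. The groups overlapped, and p53KO Mdm2(C462A) KI replicate 2 stood high.

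Phosphorylation of glucose traps it in the cell. Hk2, the hexokinase gene induced by HIF, had 2034 and 4108 normalized reads in p53KO Mdm2(C462A) KI MEFs, 2556 and 2776 in p53Mdm2 KO MEFs and 1362, 3119.6 and 1553 in p53 KO MEFs. Hk1, the widely expressed hexokinase gene, had 3486 and 2584 normalized reads in p53KO Mdm2(C462A) KI MEFs, 3817 and 3658 in p53Mdm2 KO MEFs and 5633, 4081 and 3329 in p53 KO MEFs. Hk1 was the 1 of these transport and entry genes with lower means in both genotypes, by log2 differences of -0.50 (SE 0.26) in p53KO Mdm2(C462A) KI MEFs and -0.18 (SE 0.26) in p53Mdm2 KO MEFs, and its groups overlapped except for p53KO Mdm2(C462A) KI against p53Mdm2 KO MEFs. Gpi1, which isomerises glucose 6-phosphate, had 12843 and 10688 normalized reads in p53KO Mdm2(C462A) KI MEFs, 15542 and 9615 in p53Mdm2 KO MEFs and 7131, 12092 and 9123 in p53 KO MEFs. Its p53 KO libraries overlapped both other groups, with log2 differences of 0.34 (SE 0.31) and 0.40 (SE 0.31) in p53KO Mdm2(C462A) KI and p53Mdm2 KO MEFs against p53 KO MEFs.

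Phosphofructokinase catalyses the committed step. Pfkl, the liver-type subunit gene, had 4143 and 4155 normalized reads in p53KO Mdm2(C462A) KI MEFs, 6585 and 3863 in p53Mdm2 KO MEFs and 2406, 3814 and 2029 in p53 KO MEFs. Its log2 difference from p53 KO MEFs was 0.64 (SE 0.34) in p53KO Mdm2(C462A) KI MEFs (limma adjusted p = 0.56) and 0.92 (SE 0.34) in p53Mdm2 KO MEFs. In neither did the libraries overlap the p53 KO range, but p53Mdm2 KO replicate 2 lay above it by little. The p53Mdm2 KO difference in Pfkl was 0.54 without p53Mdm2 KO replicate 1. The platelet-type gene Pfkp had 1405 and 1179 normalized reads in p53KO Mdm2(C462A) KI MEFs, 2137 and 1640.3 in p53Mdm2 KO MEFs and 888, 1786 and 1584 in p53 KO MEFs. Its 2 p53KO Mdm2(C462A) KI libraries lay below both p53Mdm2 KO libraries (log2 difference -0.53 (SE 0.36), and -0.34 without p53Mdm2 KO replicate 1) and inside the p53 KO range. The muscle-type gene Pfkm had 1562 and 1271 normalized reads in p53KO Mdm2(C462A) KI MEFs, 1421 and 1378 in p53Mdm2 KO MEFs and 2219.6, 1343 and 1431 in p53 KO MEFs. The groups overlapped, and 1 p53 KO library stood high.

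The bifunctional enzymes that make fructose 2,6-bisphosphate, the activator of phosphofructokinase, differed in placement between genotypes. Pfkfb3, the isozyme of proliferating cells, had 1055 and 2257 normalized reads in p53KO Mdm2(C462A) KI MEFs, 1728 and 1342 in p53Mdm2 KO MEFs and 534, 1199 and 1127 in p53 KO MEFs. Both p53Mdm2 KO libraries lay above the p53 KO range (log2 difference 0.75 (SE 0.46), and 0.38 without p53 KO replicate 1), and of the p53KO Mdm2(C462A) KI libraries 1 lay inside it and 1 above. Pfkfb4 had 395 and 295 normalized reads in p53KO Mdm2(C462A) KI MEFs, 489.9 and 641 in p53Mdm2 KO MEFs and 322, 454 and 417 in p53 KO MEFs. Both p53KO Mdm2(C462A) KI libraries lay below both p53Mdm2 KO libraries, with a log2 difference of -0.68 (SE 0.29).

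The aldolase genes differed from each other. Aldoc, the aldolase gene known from brain, had 349 and 310.5 normalized reads in p53KO Mdm2(C462A) KI MEFs, 256 and 64.4 in p53Mdm2 KO MEFs and 19.996, 56.6 and 70.1 in p53 KO MEFs. Both p53KO Mdm2(C462A) KI libraries and 1 p53Mdm2 KO library were several times above every p53 KO library, while p53Mdm2 KO replicate 2 lay inside the p53 KO range. The log2 difference of p53KO Mdm2(C462A) KI from p53 KO MEFs was 2.46 (SE 0.60), the greatest of the 32 genes in that comparison, with a limma adjusted p of 0.437; from p53Mdm2 KO MEFs it was 1.20 (SE 0.65). That second difference was 0.34 without p53Mdm2 KO replicate 2 and 2.06 without p53Mdm2 KO replicate 1. Aldoa, the main aldolase gene of most tissues, had 25305 and 20403 normalized reads in p53KO Mdm2(C462A) KI MEFs, 28438 and 17271 in p53Mdm2 KO MEFs and 11589.5, 20552 and 14216 in p53 KO MEFs. Its p53 KO range reached into p53Mdm2 KO and p53KO Mdm2(C462A) KI values. Tpi1, which interconverts the triose phosphates, ranged from 8220 normalized reads in p53 KO replicate 3 to 18391 in p53Mdm2 KO replicate 1.

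Gapdh, the glyceraldehyde 3-phosphate dehydrogenase gene often used as a reference transcript, had 64516 and 51643 normalized reads in p53KO Mdm2(C462A) KI MEFs, 78182 and 61341 in p53Mdm2 KO MEFs and 50409, 62952 and 43128 in p53 KO MEFs. The 3 groups overlapped around p53 KO replicate 2, and the log2 difference from p53 KO MEFs was 0.16 (SE 0.28) in p53KO Mdm2(C462A) KI MEFs and 0.43 (SE 0.28) in p53Mdm2 KO MEFs. Gapdh, Aldoa, Tpi1, Pgk1, Pgam1, Eno1 and Ldha have near-identical processed copies in the mouse genome; how reads of 50 bases shared with such copies were counted is not stated in any source at hand, so their levels are uncertain to that extent.

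Among the later steps of the pathway, Pgk1, Pgam1 and Eno1 were highest in both p53Mdm2 KO libraries. Pgk1, the first ATP-producing kinase of the pathway, had 21886 and 18637 normalized reads in p53KO Mdm2(C462A) KI MEFs, 30125 and 25405 in p53Mdm2 KO MEFs and 18312, 20362 and 15828 in p53 KO MEFs. Eno1, the common enolase gene, had 18928 and 14117 normalized reads in p53KO Mdm2(C462A) KI MEFs, 27678 and 25763 in p53Mdm2 KO MEFs and 15536, 21329 and 15646 in p53 KO MEFs. For both genes the 2 p53Mdm2 KO libraries were the highest of all 7, with log2 differences from p53 KO MEFs of 0.61 (SE 0.20) for Pgk1 and 0.62 (SE 0.23) for Eno1. Pgam1, the phosphoglycerate mutase gene, had 14609 and 10294 normalized reads in p53KO Mdm2(C462A) KI MEFs, 18535 and 17023 in p53Mdm2 KO MEFs and 13393, 15279 and 12348 in p53 KO MEFs. Its p53Mdm2 KO libraries were placed the same way, with a smaller log2 difference of 0.38 (SE 0.21). In p53KO Mdm2(C462A) KI against p53Mdm2 KO MEFs the log2 difference was -0.71 (SE 0.26) for Eno1 and -0.53 (SE 0.24) for Pgam1, neither past limma's adjusted threshold. For Pgam1 it was -0.28 without p53KO Mdm2(C462A) KI replicate 2.

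Eno2 was placed differently from Eno1. It had 1860.3 and 1434 normalized reads in p53KO Mdm2(C462A) KI MEFs, 1336 and 809 in p53Mdm2 KO MEFs and 866, 530.0 and 763 in p53 KO MEFs. The 2 p53KO Mdm2(C462A) KI libraries were above all other libraries. The log2 difference of p53KO Mdm2(C462A) KI was 1.19 (SE 0.31) from p53 KO MEFs (limma adjusted p = 0.437) and 0.64 (SE 0.34) from p53Mdm2 KO MEFs, which was 0.29 without p53Mdm2 KO replicate 2 and 1.00 without p53Mdm2 KO replicate 1. Its promoter window, printed above as an extreme of core number, held no HIF core, and neither did those of Gpi1 and Tpi1. A link between cores and levels was not tested.

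At the end of the pathway, Ldha had 24183 and 15256 normalized reads in p53KO Mdm2(C462A) KI MEFs, 33693 and 25715 in p53Mdm2 KO MEFs and 18104, 26359.8 and 19157 in p53 KO MEFs. The p53 KO range overlapped both other groups, and both p53KO Mdm2(C462A) KI libraries lay below both p53Mdm2 KO libraries (log2 difference -0.62 (SE 0.32)). That was -0.28 without p53KO Mdm2(C462A) KI replicate 2 and -0.95 without replicate 1. Pdk1, the kinase that keeps pyruvate out of the mitochondrial citric acid cycle, had 1211 and 1446 normalized reads in p53KO Mdm2(C462A) KI MEFs, 1678 and 614 in p53Mdm2 KO MEFs and 402, 609.8 and 609 in p53 KO MEFs. The 4 libraries with altered Mdm2 lay above the p53 KO range, but p53Mdm2 KO replicate 2 did so by less than the spread among p53 KO libraries. Its log2 difference from p53 KO MEFs was 1.29 (SE 0.43) in p53KO Mdm2(C462A) KI MEFs, with a limma adjusted p of 0.444, and 0.91 (SE 0.43) in p53Mdm2 KO MEFs. For Pdk1 the p53Mdm2 KO difference was 0.20 without p53Mdm2 KO replicate 1 and 1.62 without replicate 2. Slc16a3 (MCT4), which exports lactate, had 1177 and 1928 normalized reads in p53KO Mdm2(C462A) KI MEFs, 3278 and 1096 in p53Mdm2 KO MEFs and 26.4, 1260.4 and 553 in p53 KO MEFs. The log2 difference of 2.58 (SE 1.37) in p53Mdm2 KO against p53 KO MEFs, the highest of the 32 genes there, was set against p53 KO libraries that differed widely, with replicate 1, the library with little Col1a2, far below the others, and its groups overlapped.

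Of the mitophagy receptor genes, Bnip3 had 1948 and 1539.9 normalized reads in p53KO Mdm2(C462A) KI MEFs, 2350.2 and 816 in p53Mdm2 KO MEFs and 622, 595 and 605 in p53 KO MEFs. The 3 p53 KO libraries differed little from each other, and all 4 libraries with altered Mdm2 lay above them. The log2 difference from p53 KO MEFs was 1.48 (SE 0.42) in p53KO Mdm2(C462A) KI MEFs (limma adjusted p = 0.437) and 1.17 (SE 0.42) in p53Mdm2 KO MEFs. The p53Mdm2 KO difference in Bnip3 was 0.42 without p53Mdm2 KO replicate 1 and 1.92 without replicate 2. Bnip3l (NIX), its paralog, had 3860.0 and 4415 normalized reads in p53KO Mdm2(C462A) KI MEFs, 3542 and 2649.7 in p53Mdm2 KO MEFs and 2179, 2592 and 3029 in p53 KO MEFs. Its p53KO Mdm2(C462A) KI libraries and p53Mdm2 KO replicate 1 lay above the p53 KO range, and p53Mdm2 KO replicate 2 lay inside it. The log2 difference of p53KO Mdm2(C462A) KI from p53 KO MEFs was 0.68 (SE 0.21).

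Of the genes for secreted and surface proteins, Vegfa, the main growth factor for blood vessels, had 4951 and 23235 normalized reads in p53KO Mdm2(C462A) KI MEFs, 6582 and 3440.2 in p53Mdm2 KO MEFs and 1507, 3767 and 2829 in p53 KO MEFs. Both p53KO Mdm2(C462A) KI libraries were above all p53 KO libraries, with replicate 2 far above every other library, and the log2 difference was 2.08 (SE 0.72) with a limma adjusted p of 0.448. It was 0.97 without p53KO Mdm2(C462A) KI replicate 2 and 3.19 without replicate 1. Replicate 2 is also the library with the highest mean of Atf4 targets, and the part of this in the Vegfa value was not tested. Adm, the gene of the vasodilator peptide adrenomedullin, had 2584 and 769 normalized reads in p53KO Mdm2(C462A) KI MEFs, 2787 and 5099 in p53Mdm2 KO MEFs and 7167, 3201 and 2185 in p53 KO MEFs. Here the 2 p53KO Mdm2(C462A) KI libraries lay below both p53Mdm2 KO libraries, with a log2 difference of -1.40 (SE 0.74). That placement rests on close values, 2584 in p53KO Mdm2(C462A) KI replicate 1 and 2787 in p53Mdm2 KO replicate 1; the difference was -0.54 without p53KO Mdm2(C462A) KI replicate 2 and -2.26 without replicate 1. Car9, a carbonic anhydrase gene and classic HIF target, had 71.2 and 108 normalized reads in p53KO Mdm2(C462A) KI MEFs, 66.8 and 102 in p53Mdm2 KO MEFs and 794, 34.3 and 16.2 in p53 KO MEFs. Its highest value stood in p53 KO replicate 1, where Slc16a3, Ankrd37 and Egln3 were lowest.

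The prolyl hydroxylase genes that mark HIF for destruction are themselves HIF targets. Egln1 (PHD2), the main oxygen sensor, had 2139 and 1438 normalized reads in p53KO Mdm2(C462A) KI MEFs, 2896 and 2397 in p53Mdm2 KO MEFs and 2252, 2199.7 and 1813 in p53 KO MEFs. Both p53Mdm2 KO libraries were the highest of the 7, and those of p53KO Mdm2(C462A) KI MEFs lay below them by a log2 difference of -0.58 (SE 0.25), or -0.30 without p53KO Mdm2(C462A) KI replicate 2. Egln3 (PHD3) had 554 and 329 normalized reads in p53KO Mdm2(C462A) KI MEFs, 666 and 323 in p53Mdm2 KO MEFs and 105, 365 and 237 in p53 KO MEFs. The groups overlapped, and p53 KO replicate 1 was lowest.

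Ankrd37, a small ankyrin repeat gene whose promoter is a known HIF target, had 75.2 and 58.2 normalized reads in p53KO Mdm2(C462A) KI MEFs, 148 and 63.1 in p53Mdm2 KO MEFs and 9.09, 43.6 and 29.1 in p53 KO MEFs. Every library with altered Mdm2 exceeded every p53 KO library, at low read numbers, with log2 differences from p53 KO MEFs of 1.02 (SE 0.49) in p53KO Mdm2(C462A) KI MEFs (limma adjusted p = 0.532) and 1.47 (SE 0.49) in p53Mdm2 KO MEFs. For Ankrd37 these were 0.65 without p53 KO replicate 1 in p53KO Mdm2(C462A) KI MEFs and 0.96 without p53Mdm2 KO replicate 1 in p53Mdm2 KO MEFs. Ndrg1, a stress-induced gene of differentiation and trafficking, had 2309 and 5237 normalized reads in p53KO Mdm2(C462A) KI MEFs, 2768 and 698 in p53Mdm2 KO MEFs and 1484, 1110.1 and 736 in p53 KO MEFs. The p53KO Mdm2(C462A) KI libraries lay above the p53 KO range (log2 difference 1.69 (SE 0.65), limma adjusted p = 0.459, and 1.099 without p53KO Mdm2(C462A) KI replicate 2), and the p53Mdm2 KO libraries lay on both sides of it.

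The HIF alpha subunit genes differed in placement. Hif1a had 8543 and 9725 normalized reads in p53KO Mdm2(C462A) KI MEFs, 7738 and 7640.1 in p53Mdm2 KO MEFs and 5002, 7555 and 8996 in p53 KO MEFs. All groups lay inside or near the wide p53 KO range, with log2 differences from p53 KO MEFs of 0.38 (SE 0.26) in p53KO Mdm2(C462A) KI MEFs and 0.14 (SE 0.26) in p53Mdm2 KO MEFs. Both p53KO Mdm2(C462A) KI libraries lay above both p53Mdm2 KO libraries, with a log2 difference of 0.24 (SE 0.29). Epas1, which encodes HIF-2 alpha, had 73.2 and 37.0 normalized reads in p53KO Mdm2(C462A) KI MEFs, 77.0 and 91.4 in p53Mdm2 KO MEFs and 102, 127 and 189.8 in p53 KO MEFs. The 3 genotypes did not overlap: p53KO Mdm2(C462A) KI MEFs were lowest and p53 KO MEFs highest. The log2 difference from p53 KO MEFs was -1.11 (SE 0.36) in p53KO Mdm2(C462A) KI MEFs, with a limma adjusted p of 0.437, and -0.59 (SE 0.36) in p53Mdm2 KO MEFs. In p53Mdm2 KO MEFs it was -0.37 without p53 KO replicate 3. These are transcript levels, and HIF activity is set mostly at the level of the protein.

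**Figure D3:**
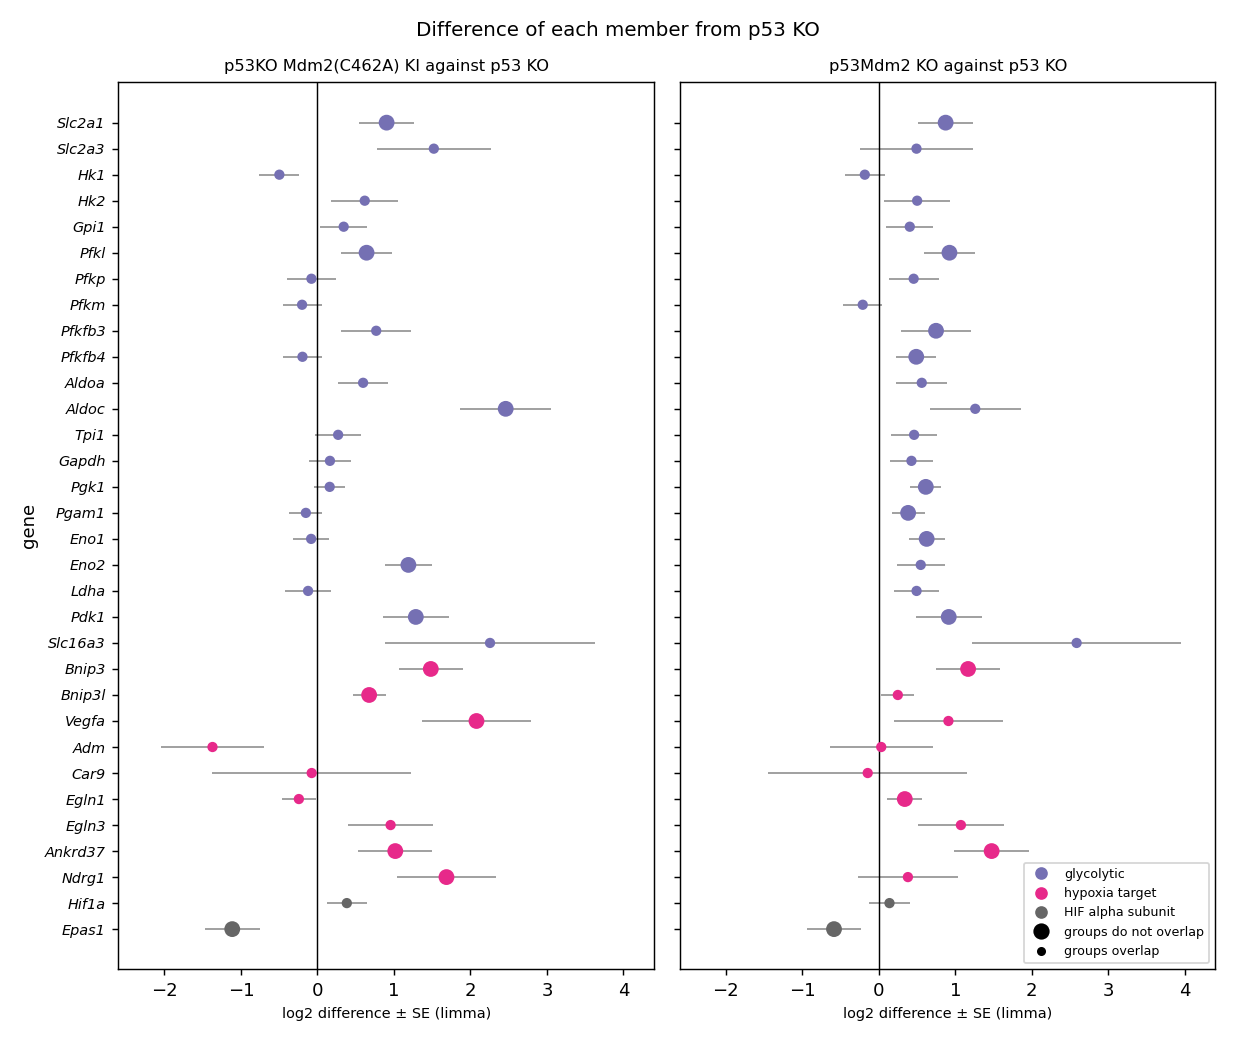
Points give the log2 difference from p53 KO MEFs of all 32 genes in p53KO Mdm2(C462A) KI MEFs (left) and p53Mdm2 KO MEFs (right), bars its limma standard error, and large points groups that do not overlap; both panels share the p53 KO libraries. Of 21 glycolytic genes 14 lie right of 0 on the left and 19 on the right, and Epas1 lies left of 0 in both.

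Ratios between related genes within a library do not depend on library scaling, and since reads were not divided by gene length, a ratio is compared between libraries only. Epas1 reads per 100 Hif1a reads were 0.857 and 0.381 in p53KO Mdm2(C462A) KI MEFs, 0.995 and 1.20 in p53Mdm2 KO MEFs and 2.04, 1.68 and 2.11 in p53 KO MEFs. On the log2 scale the ratio averaged -7.45 ± 0.83 in p53KO Mdm2(C462A) KI MEFs, -6.52 ± 0.19 in p53Mdm2 KO MEFs (SD, n = 2 each) and -5.69 ± 0.18 in p53 KO MEFs (SD, n = 3), with no overlap between genotypes. The ratio was lower in p53KO Mdm2(C462A) KI MEFs with either of their libraries left out, though by differing amounts: on the deposited log2 scale its difference from p53 KO MEFs was -1.50 with both, -1.04 without replicate 2 and -1.96 without replicate 1.

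The share of the brain-type isozymes was highest in p53KO Mdm2(C462A) KI MEFs. Eno2 reads per 100 Eno1 reads were 9.83 and 10.2 in p53KO Mdm2(C462A) KI MEFs, 4.83 and 3.14 in p53Mdm2 KO MEFs and 5.58, 2.48 and 4.87 in p53 KO MEFs. Aldoc reads per 100 Aldoa reads were 1.38 and 1.52 in p53KO Mdm2(C462A) KI MEFs, 0.900 and 0.373 in p53Mdm2 KO MEFs and 0.173, 0.275 and 0.493 in p53 KO MEFs. In both ratios the p53KO Mdm2(C462A) KI libraries lay above all others and the remaining genotypes overlapped. The 7 neural markers, of which 4 passed the filter, summed to 2764 and 2986 normalized reads in p53KO Mdm2(C462A) KI MEFs. The sums were 5027 and 13029.5 in p53Mdm2 KO MEFs and 1837, 12425 and 5619 in p53 KO MEFs, and Olig2 was at 0 in every library. Most of each sum was Nes, with 2349.5 and 2276 normalized reads in p53KO Mdm2(C462A) KI MEFs. Nes had 4058 and 12332 in p53Mdm2 KO MEFs and 1312, 11178 and 4877 in p53 KO MEFs. The part of neural cells in the isozyme ratios was not tested.

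**Figure D4:**
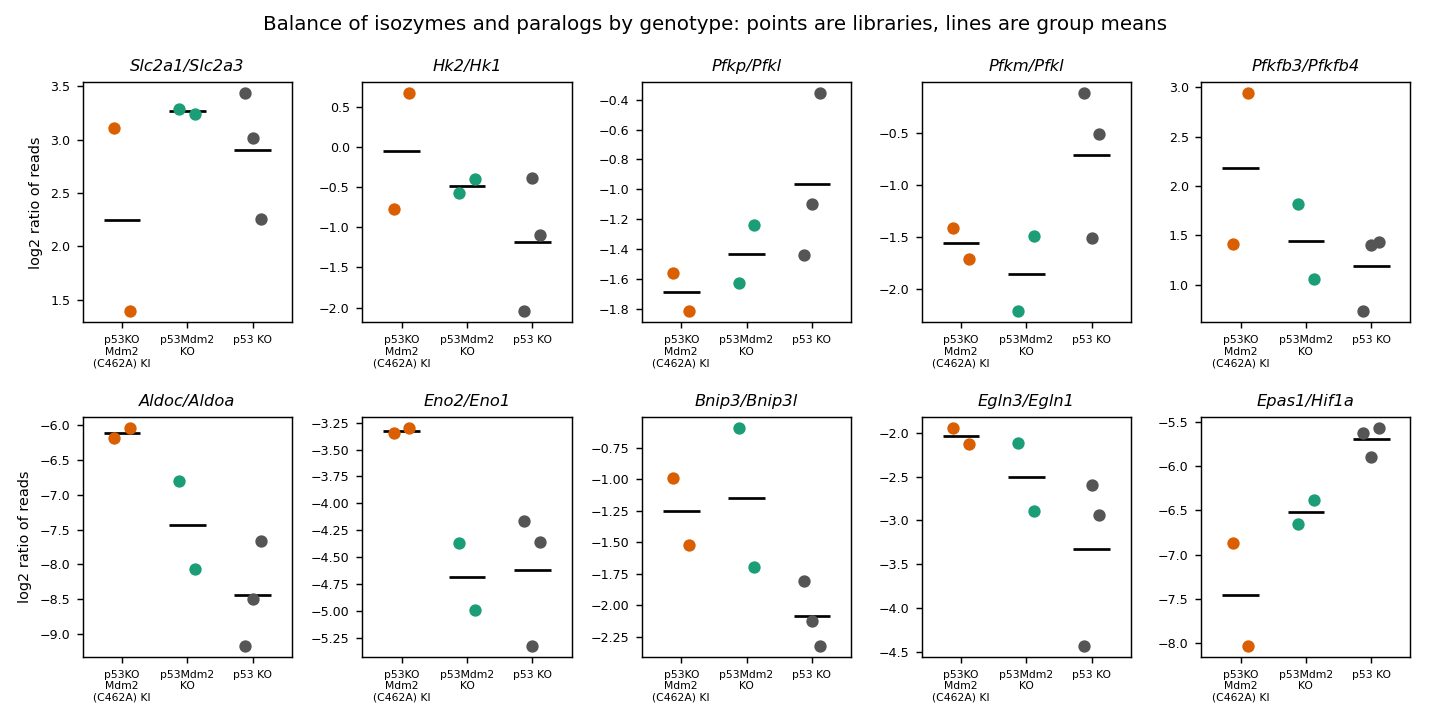
Points give the log2 ratio of reads of related genes in each library, by genotype. Both p53KO Mdm2(C462A) KI points lie above all others for Eno2 over Eno1 and Aldoc over Aldoa, and both lie below all others for Epas1 over Hif1a.

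For other pairs, Bnip3 reads per 100 Bnip3l reads were 50.5 and 34.9 in p53KO Mdm2(C462A) KI MEFs, 66.3 and 30.8 in p53Mdm2 KO MEFs and 28.5, 23.0 and 19.98 in p53 KO MEFs, all 4 libraries with altered Mdm2 being above the p53 KO range. Pfkp reads per 100 Pfkl reads were 33.9 and 28.4 in p53KO Mdm2(C462A) KI MEFs, 32.5 and 42.5 in p53Mdm2 KO MEFs and 36.9, 46.8 and 78.1 in p53 KO MEFs. In that ratio p53KO Mdm2(C462A) KI MEFs and p53Mdm2 KO replicate 1 lay below the p53 KO range. Egln3 reads per 100 Egln1 reads were 25.9 and 22.9 in p53KO Mdm2(C462A) KI MEFs, 23.0 and 13.5 in p53Mdm2 KO MEFs and 4.64, 16.6 and 13.1 in p53 KO MEFs, with p53KO Mdm2(C462A) KI MEFs and p53Mdm2 KO replicate 1 above the p53 KO range. The Slc2a1 to Slc2a3 ratio was lower in both p53KO Mdm2(C462A) KI libraries than in both p53Mdm2 KO libraries and overlapped with p53 KO MEFs. The ratios Hk2 to Hk1, Pfkm to Pfkl and Pfkfb3 to Pfkfb4 overlapped between all genotypes.

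The remaining genes of both pathways were read from wider lists. Of 32 other glycolysis and pyruvate genes 27 were tested: 14 were higher in p53Mdm2 KO than in p53 KO MEFs (median log2 difference 0.02) and 15 in p53KO Mdm2(C462A) KI than in p53 KO MEFs (median 0.06). Of 46 further HIF targets 44 were tested: 31 were higher in p53Mdm2 KO than in p53 KO MEFs (median 0.29), 32 in p53KO Mdm2(C462A) KI than in p53 KO MEFs (median 0.42), and 25 in p53KO Mdm2(C462A) KI than in p53Mdm2 KO MEFs (median 0.07). Of 15 genes for HIF partners and regulators 14 were tested, with medians of -0.02, -0.05 and 0.18 in the same 3 comparisons. None of these genes passed limma's adjusted p of 0.05.

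Among the wider HIF targets, Hmox1, the heme oxygenase gene also driven by oxidative stress, had 8258 and 9277 normalized reads in p53KO Mdm2(C462A) KI MEFs, 5033 and 4607 in p53Mdm2 KO MEFs and 4324, 2522 and 2303 in p53 KO MEFs. Both p53KO Mdm2(C462A) KI libraries were above all others, with a log2 difference from p53 KO MEFs of 1.57 (SE 0.29) and a limma adjusted p of 0.437. From p53Mdm2 KO MEFs their log2 difference was 0.86 (SE 0.31). Both p53Mdm2 KO libraries also lay above the p53 KO range, with a log2 difference of 0.71 (SE 0.29). Lox, the collagen cross-linking oxidase gene, had 48845 and 46083 normalized reads in p53KO Mdm2(C462A) KI MEFs, 60482 and 77889 in p53Mdm2 KO MEFs and 82821, 99429 and 131918 in p53 KO MEFs. It was lower in both p53KO Mdm2(C462A) KI libraries than in every other library, by a log2 difference from p53 KO MEFs of -1.12 (SE 0.29) (limma adjusted p = 0.437), which is the opposite direction to most HIF targets.

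Bhlhe41, a repressor of circadian genes, and Mxi1, a Myc antagonist, had log2 differences of 0.99 (SE 0.26) and 0.71 (SE 0.21) in p53KO Mdm2(C462A) KI against p53 KO MEFs. In p53Mdm2 KO against p53 KO MEFs the smallest unadjusted p of the wider lists belonged to Tfrc, the transferrin receptor gene, with 10189 and 9599 normalized reads in p53KO Mdm2(C462A) KI MEFs, 12804 and 14084 in p53Mdm2 KO MEFs and 1839.6, 7304 and 3890.5 in p53 KO MEFs. Its p53Mdm2 KO libraries were the highest of the 7, with a log2 difference of 1.84 (SE 0.52). Rbpj, the Notch effector gene, Plin2, a lipid droplet gene, and Rora, a nuclear receptor gene, had log2 differences of 0.74 (SE 0.29), 0.45 (SE 0.18) and -0.94 (SE 0.35) there. Arnt, the HIF partner gene, had a log2 difference of 0.44 (SE 0.18) in p53KO Mdm2(C462A) KI against p53Mdm2 KO MEFs.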

How the data were processed

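Per the labels' protocols, total RNA was extracted with TRIzol, libraries were made with a TruSeq RNA kit from 1000 ng of RNA with a RIN above 8, and single reads of 50 bp were sequenced. The submitters' processing notes name CASAVA 1.8.2, Bowtie2 2.1.0, DESeq 1.14.0 and build mm9 but not their roles; counting tool and strand setting: not given in the sources used here. The deposited table holds log2 values that the authors had variance-stabilized, not linear reads: a gene without reads has 3.36 in every column. Inverting the transformation gave normalized reads, and 100% of values were whole reads within 0.05.

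Log2 differences and p-values come from limma 3.58.1 (R 4.3.3), fitted to the deposited log2 values of all 7 samples as 3 groups with a mean-variance trend, for 16900 genes with a mean of at least 10 normalized reads, two-sided, adjusted by Benjamini-Hochberg. The design had foreseen linear values, and limma was fitted to the log values directly instead. Differences understate the change of low genes. The fit was tested on simulated data. Per-library list means use the deposited log2 values, while the plot of all members by gene and library uses log2 of normalized reads.

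The members and all lists were chosen with earlier results of these data known, so lists are described by counts and medians and not tested. Members were described in full where groups did not overlap and the log2 difference was at least 0.5, and for the most read member of each role; the others were added after their values were seen. Up to 5 genes of the wider lists were named per comparison, by smallest unadjusted p. A single such gene is not reported here. Filters, scales, normalizations, variance models, voom, a replicate block and left-out libraries were tried as alternatives; the covariate for Y-linked reads and the counts without libraries were added after the data were seen. Protein sequences and mm9 coordinates were not used here.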

Additional observations from a re-analysis of the deposited data

How the results depend on the processing

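Under the alternative filters, scales, normalizations, variance models, weights, voom and sample choices, the number of genes passing limma's adjusted threshold stayed at 0 in every comparison but one: without p53 KO replicate 1 and p53KO Mdm2(C462A) KI replicate 2 together, 1 gene (Ifi202b, not a member) passed in p53Mdm2 KO against p53 KO MEFs. Leaving out 1 library at a time, the median of the hypoxia targets ranged from 0.36 to 1.36 in p53Mdm2 KO against p53 KO MEFs, from 0.65 to 1.30 in p53KO Mdm2(C462A) KI against p53 KO MEFs and from -0.44 to 0.38 in p53KO Mdm2(C462A) KI against p53Mdm2 KO MEFs. The glycolytic median ranged from 0.30 to 0.75, 0.21 to 0.54 and -0.42 to 0.10 in these comparisons. The difference in the Epas1 to Hif1a log2 ratio between p53KO Mdm2(C462A) KI and p53 KO MEFs ranged from -1.96 to -1.04, and was -0.98 without both outlying libraries; the cause was not tested.

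Same-numbered replicates had weakly correlated deviations from their group means (correlations from -0.16 to 0.20). In groups of 2 the deviations mirror each other, so these correlations are not all separate checks and cannot exclude a pairing. With a replicate block 0 genes passed in each comparison, and 442, 1486 and 279 had an unadjusted p under 0.05; glycolytic medians were 0.53, 0.33 and -0.19. With 2 or 3 samples per genotype, standard errors of many members were close to their differences, and Ankrd37, Epas1, Car9 and Aldoc rest on few reads in some libraries.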
